A study of Caenorhabditis elegans with 55 samples.

Results

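The 6 genes described here encode the C. elegans Argonautes that bind miRNAs, piRNAs and primary siRNAs: alg-1 (WBGene00000105, F48F7.1), alg-2 (WBGene00000106, T07D3.7), alg-5 (WBGene00011945, T23D8.7), prg-1 (WBGene00004178, D2030.6), ergo-1 (WBGene00019971, R09A1.1) and rde-1 (WBGene00004323, K08H10.7). They were taken by name, without use of any measured value, and all 6 were found both among the 20096 genes with antisense small RNA in the deposited tables and among the 19390 genes counted in both mRNA tables. The study compared the isoforms of the Argonaute CSR-1, the long CSR-1a and the short CSR-1b, with other tagged Argonautes. Small RNA was sequenced from immunoprecipitates (IP) and from the input RNA of 10 strains, with 2 IP and 2 input libraries per strain, and mRNA was sequenced from 4 groups of 3 libraries. All libraries were made from whole worms at the L4 larval stage, in which somatic and germline RNA are mixed.

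Argonautes are small RNA-binding proteins that find target RNAs by base pairing. ALG-1 and ALG-2 carry miRNAs in most somatic tissues and ALG-5 carries miRNAs in the germline. PRG-1 is the worm Piwi protein and carries piRNAs (21U-RNAs) in the germline. ERGO-1 carries 26G-RNAs made in oocytes and embryos, and RDE-1 receives the siRNAs cut from foreign double-stranded RNA. PRG-1, ERGO-1 and RDE-1 start silencing, after which RNA-dependent RNA polymerases copy the target into antisense 22G-RNAs that load onto WAGO proteins. CSR-1 also binds antisense 22G-RNAs, and which step led to those read here was not tested. The antisense reads counted here are small RNAs complementary to the Argonautes' own mRNAs, so each of the 6 genes is read as a possible target of the proteins that were immunoprecipitated. Per-gene sequences are not printed here.

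The CSR-1 strains carried these alleles at 20 C. JMC101 carried csr-1(tor67[gfp::3xflag::csr-1]), and its IP was labelled CSR-1. JMC151 carried a gfp::3xflag tag in csr-1 exon1 (tor160), and its IP was labelled CSR-1a. JMC164 carried, by its genotype label, the tor67 tag with a stop codon, mg660[G120*], and its IP was labelled CSR-1b. The titles of its mRNA libraries name the allele csr-1a(tor159) instead, and the labels do not settle which applies. JMC161 carried unc-119(ed3), the deletion csr-1(tm892) and a transgene, mgTi11[rpl-28::csr-1a exon1::gfp], driven by the promoter of a ribosomal protein gene. The IP of JMC161 was labelled CSR-1, not CSR-1a. GR3035 carried mgIs75[rpn-2::gfp] and mgTi14[pbs-5::mcherry] with no listed csr-1 allele, GR3039 carried csr-1(mg657[G91R]), and the IPs of both were labelled CSR-1a. The other tagged strains were JMC205 with gfp::3xflag::alg-3 (tor141), JMC207 with gfp::3xflag::alg-4 (tor143), JMC223 with gfp::3xflag::wago-4 (tor117) and JMC248 with 3xflag::wago-10 (tor162). The labels name GFP beads for every IP, although the genotype of JMC248 lists no GFP, that of GR3035 lists it on rpn-2, and the protocol also names an antibody to CSR-1a. The mRNA groups were JMC164 and wild type N2, each at 20 C and 25 C; JMC164 is labelled a csr-1a mutant and also carries the tag, so mutation, tag and strain cannot be told apart.

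Estimated depth ran from 325376 to 30284405 reads in the small RNA libraries and total counts from 7457580 to 18775147 in the mRNA libraries. The shallowest small RNA library was WAGO-4 input replicate 2, in which 1 read was worth 3.07 RPM (reads per 1000000). Antisense coding reads made up 18.8% to 90.4% of a library and differed between IP and input by strain: 88.1% to 90.4% in the JMC101 IPs against 31.3% to 31.5% in its inputs, but 35.0% to 39.0% in the JMC151 IPs against 19.7% to 32.2%. Reads of the gfp tag were 172 to 772 in the JMC164 mRNA libraries and 0 to 1 in N2. The csr-1 mRNA itself averaged 141 ± 95.8 CPM (counts per 1000000; SD, n = 3) in JMC164 and 182 ± 53.0 in N2 at 20 C (edgeR quasi-likelihood test, adjusted p = 0.667), and 138 ± 40.5 against 314 ± 36.7 CPM at 25 C (adjusted p = 0.0657). Nothing in the labels says that replicates came from separate cultures, so the p-values measure the spread between these samples, which may be technical.

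Small RNAs antisense to the 6 genes differed in which IPs they were found. Reads antisense to alg-5, prg-1, ergo-1 and rde-1 were 4.74 to 19.8 times higher in the IPs of CSR-1 (JMC101), CSR-1b (JMC164), WAGO-4 (JMC223) and the csr-1a transgene (JMC161) than in their inputs. The siRNA Argonaute gene rde-1 was also called higher in JMC151, GR3035 and ALG-3 (JMC205). Reads antisense to alg-1 were 16.1 times higher in the CSR-1a IP of JMC151, 10.7 times higher in that of GR3035 and 3.92 times higher in that of GR3039, and they were 5.25 times higher in JMC161, while no difference was called in JMC101 or JMC164. In the ALG-3 and ALG-4 IPs alg-1 and alg-5 were lower than in input, and no member was called in the WAGO-10 IP. A gene was called where limma on log2(RPM + 1) gave a Benjamini-Hochberg adjusted p under 0.05 over all features tested and the fold change was 1 or more in size on the log2 scale. Fold changes on that scale understate the change of low genes, and ratios given as times are ratios of mean RPM.

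**Figure D1:**
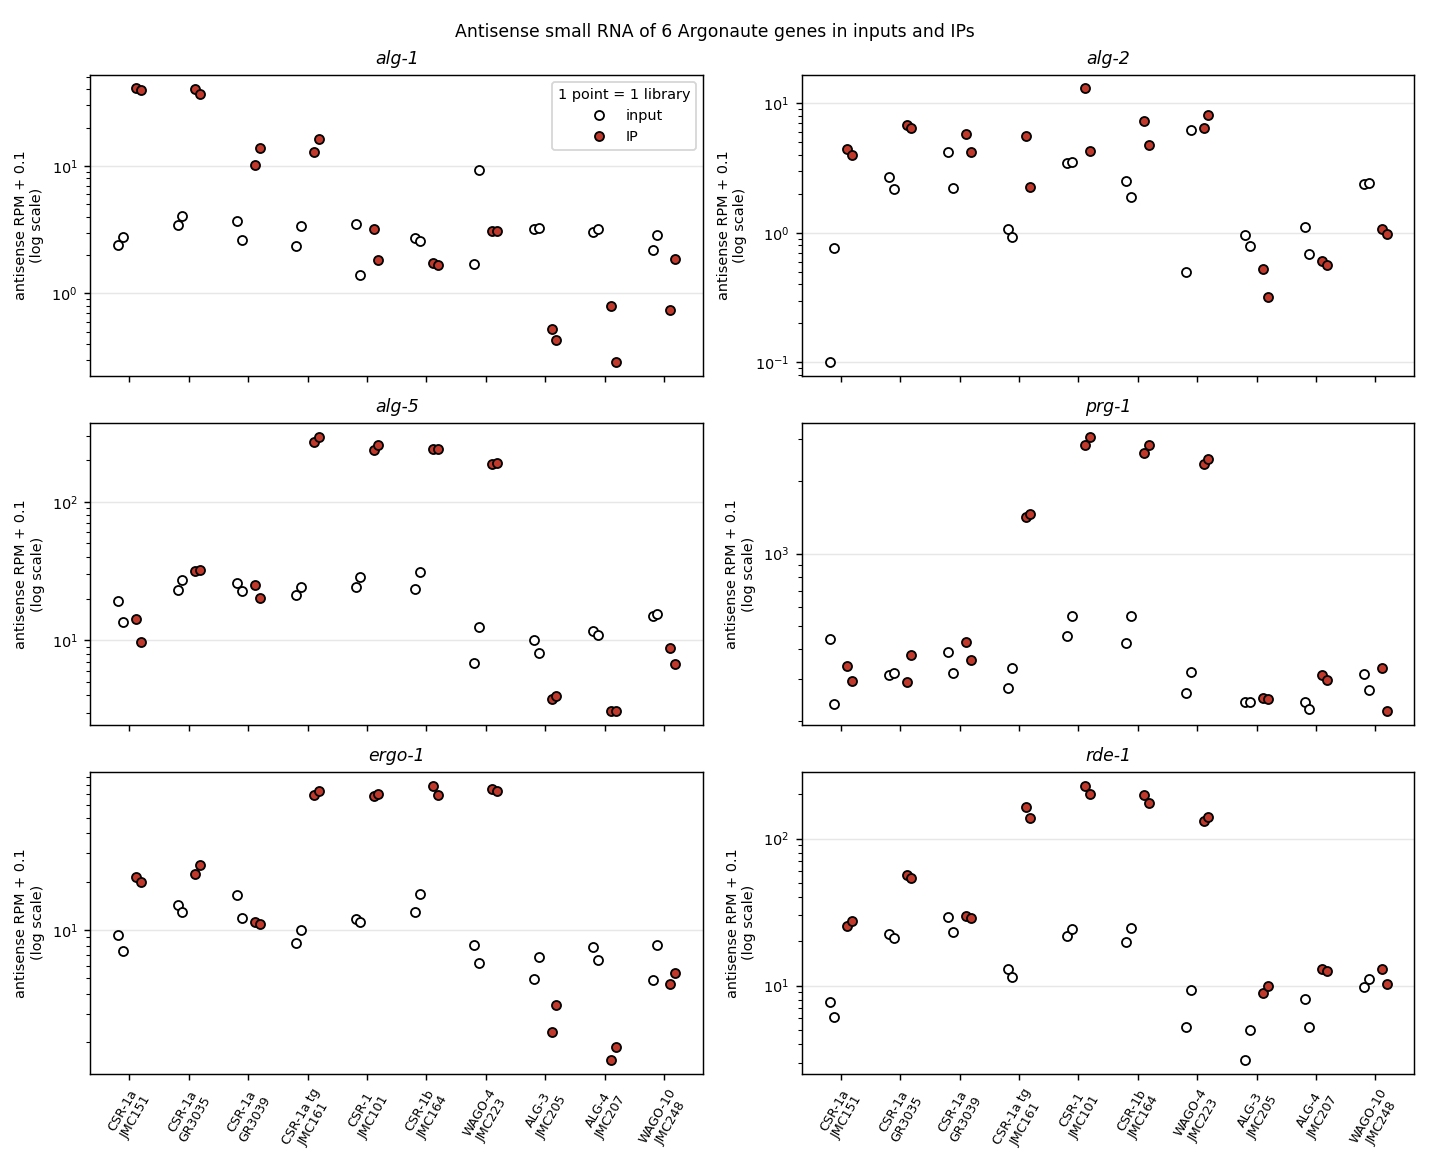
Antisense small RNA of the 6 genes, 1 panel per gene. The vertical axis is RPM + 0.1 on a log scale, each point is 1 library, open for input and filled for IP, and each strain is marked with its Argonaute (tg, transgene). JMC161 is marked CSR-1a after its transgene, although its IP was labelled CSR-1. The alg-1 IP points are highest in JMC151 (40.7 and 39.2 RPM) and GR3035 (40.5 and 36.8 RPM), whereas the alg-5, prg-1, ergo-1 and rde-1 IP points are highest in JMC161, JMC101, JMC164 and JMC223.

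Among the miRNA Argonautes, alg-1 had few antisense reads in input, with a median of 2.86 RPM over 20 input libraries. In the JMC151 CSR-1a IPs alg-1 stood at 40.7 and 39.2 RPM, against 2.30 and 2.67 RPM in the inputs. The groups did not overlap, and the log2 fold change was 3.56 ± 0.56 (SE; limma, adjusted p = 3.38e-07). The JMC151 inputs held 3 and 4 alg-1 reads and the IPs 63 and 61, so the ratio of the summed reads, scaled to depth, was 15.95 with an exact 95% counting interval of 7.51 to 40.5. That interval, like the others given here, covers counting error only. Without either IP library alg-1 was no longer testable in JMC151, and without the filter on low values the adjusted p rose to 0.0798 (limma).

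The alg-1 excess was also seen in 3 other strains. In GR3035 alg-1 read 40.5 and 36.8 RPM in the IPs and 3.32 and 3.92 RPM in the inputs, a log2 fold change of 3.10 ± 0.17 (limma, adjusted p = 2.35e-05). In GR3039, which carries the G91R allele, the IPs read 10.1 and 13.8 RPM and the inputs 3.58 and 2.53 RPM, a log2 fold change of 1.67 ± 0.32 (limma, adjusted p = 0.0015). In the transgenic JMC161 the IPs read 12.8 and 16.2 RPM and the inputs 2.24 and 3.28 RPM, a log2 fold change of 2.05 ± 0.27 (limma, adjusted p = 0.000316). IP and input did not overlap in any of these strains, and each of the 3 calls held under every alternative run. It was not seen in JMC101 or JMC164. In JMC101 alg-1 read 3.11 and 1.72 RPM in the IPs and 3.38 and 1.29 RPM in the inputs, which overlapped. In the CSR-1b IPs of JMC164 alg-1 read 1.62 and 1.56 RPM, below the 2.60 and 2.48 RPM of the inputs, with a log2 difference of -0.45 ± 0.33 that did not pass the test (limma, adjusted p = 0.282). In the WAGO-4 libraries alg-1 had 4 and 3 input reads and 12 and 7 IP reads, which did not pass the filter on low values.

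The paralogue alg-2, whose protein works alongside ALG-1 in the soma, had few antisense reads, and its calls depended on the processing. It had at most 6.15 RPM in input and 12.9 RPM in IP. It passed the test in JMC164 (log2 fold change 1.14 ± 0.35; limma, adjusted p = 0.0255), GR3035 (1.18 ± 0.21; limma, adjusted p = 0.00348) and JMC161 (1.25 ± 0.39; limma, adjusted p = 0.0221), and each of these calls was lost under at least 2 of the 10 alternatives run. In JMC151 alg-2 had 0 and 1 reads in the inputs and 7 and 6 in the IPs, too few for the test, and the ratio of the summed reads, scaled to depth, was 11.7 with an exact 95% counting interval of 1.76 to 497. The sources used here do not say how reads shared by the close paralogues alg-1 and alg-2 were assigned, so their values are uncertain to that extent.

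The germline miRNA Argonaute gene alg-5 behaved differently from alg-1. Its antisense reads stood at 238 and 258 RPM in the JMC101 IPs against 24.2 and 28.5 RPM in input. In the CSR-1b IPs of JMC164 they stood at 241 and 240 RPM against 23.4 and 30.9 RPM. The groups were far apart in both strains, with log2 fold changes of 3.19 ± 0.16 and 3.11 ± 0.21 (limma, adjusted p = 3.39e-05 and 2.67e-05). The WAGO-4 IPs read 186 and 191 RPM against 6.75 and 12.3 RPM, a log2 fold change of 4.22 ± 0.31 (limma, adjusted p = 0.000195), although the shallow WAGO-4 input rested on 4 reads. The transgenic JMC161 IPs read 270 and 294 RPM against 21.1 and 24.1 RPM, a log2 fold change of 3.59 ± 0.15 (limma, adjusted p = 1.28e-06). No such difference appeared in the CSR-1a IPs of JMC151, where alg-5 read 14.2 and 9.60 RPM against 19.2 and 13.4 RPM in overlapping groups (log2 difference -0.42 ± 0.56; limma, adjusted p = 0.563). In GR3035 the IPs read 31.6 and 32.2 RPM against 22.8 and 27.3 RPM (log2 difference 0.34 ± 0.15; limma, adjusted p = 0.0966).

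Antisense reads of the Piwi gene prg-1 stood at 225 to 551 RPM in the inputs. In the JMC101 IPs they rose to 2851 and 3068 RPM from 452 and 551 RPM in input. In the CSR-1b IPs of JMC164 they stood at 2632 and 2843 RPM against 423 and 549 RPM. In the WAGO-4 IPs they stood at 2368 and 2479 RPM against 263 and 320 RPM. No IP value in these strains came near an input value, and the log2 fold changes were 2.56 ± 0.24, 2.50 ± 0.31 and 3.06 ± 0.13 (limma, adjusted p = 0.000158, 0.000243 and 6.70e-05). JMC161 lay between, at 1428 and 1460 RPM in the IPs against 274 and 334 RPM in the inputs, a log2 fold change of 2.25 ± 0.16 (limma, adjusted p = 8.26e-06). The CSR-1a IPs held no such excess: 339 and 294 RPM in JMC151, inside the input values of 441 and 235 RPM, and 291 and 378 RPM in GR3035, around the input values of 311 and 319 RPM. The ALG-3 IPs read 249 and 247 RPM against 241 and 240 RPM in input, and prg-1 was not called in the ALG-4 or WAGO-10 IPs either. The annotated span of prg-1 overlaps the gene D2030.12.

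For the 26G-RNA Argonaute gene ergo-1, the JMC101 IPs read 68.2 and 69.9 RPM against 11.7 and 11.2 RPM in input, a log2 fold change of 2.49 ± 0.17 (limma, adjusted p = 4.83e-05). The CSR-1b, WAGO-4 and JMC161 IPs ranged from 69.5 to 79.3 RPM, so the 8 IP libraries of these 4 strains differed little among themselves. In the CSR-1a IPs of JMC151 ergo-1 read 21.3 and 19.8 RPM against 9.22 and 7.35 RPM, groups that did not overlap but missed the threshold (log2 difference 1.22 ± 0.56; limma, adjusted p = 0.059), which it passed with the replicate number as a block (0.0165) and without input replicate 1 (0.0388). In GR3035 the adjusted p was 0.00567 (limma), but the log2 fold change of 0.76 ± 0.16 was under 1. The ALG-4 IPs went the other way, at 1.46 and 1.77 RPM against 7.76 and 6.40 RPM (log2 fold change -1.63 ± 0.20; limma, adjusted p = 0.000246). The ALG-4 call was lost with a pseudocount of 5 RPM (log2 fold change -0.87). The ALG-3 IPs read 2.21 and 3.30 RPM against 4.89 and 6.67 RPM, a log2 difference of -0.86 ± 0.20, under 1 in size (limma, adjusted p = 0.00379). It passed 1 in size, and so was called lower, with a pseudocount of 0.1 RPM (-1.05), without input replicate 1 (-1.05) and without IP replicate 2 (-1.07). The annotated span of ergo-1 overlaps pei-2.

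The exogenous RNAi Argonaute gene rde-1 was called higher in IP in 7 of the 10 strains, the most of the 6 genes. In JMC101 it stood at 229 and 202 RPM against 21.8 and 24.1 RPM in input, and in JMC164 at 197 and 175 RPM against 19.9 and 24.5 RPM. The log2 fold changes were 3.17 ± 0.16 and 3.02 ± 0.21 (limma, adjusted p = 3.39e-05 and 2.67e-05). Unlike alg-5 and prg-1, rde-1 also passed in both CSR-1a IPs without the G91R allele, at 25.2 and 27.5 RPM against 7.68 and 6.01 RPM in JMC151 (log2 fold change 1.81 ± 0.56; limma, adjusted p = 0.00494) and 56.4 and 53.7 RPM against 22.4 and 21.1 RPM in GR3035 (1.30 ± 0.14; limma, adjusted p = 0.000265). In GR3039 the IPs read 29.8 and 28.8 RPM against 29.3 and 22.9 RPM, a log2 difference of 0.17 ± 0.23 (limma, adjusted p = 0.619). The JMC151 call was lost without either IP library, at adjusted p = 0.121 and 0.15 (limma). The gene rde-1 was also the single member called higher in the ALG-3 IPs, at 8.85 and 9.79 RPM against 3.03 and 4.87 RPM (log2 fold change 1.08 ± 0.18; limma, adjusted p = 0.000673). That call was lost without input replicate 1 (0.81) and with a pseudocount of 5 RPM (0.68). The ALG-4 IPs read 12.9 and 12.5 RPM against 8.05 and 5.14 RPM, a log2 difference of 0.88 ± 0.24, under 1 in size (limma, adjusted p = 0.0117). It passed 1 in size under TMM scaling (1.22) and without ALG-4 input replicate 1 (1.16).

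In the IPs of the spermatogenic Argonautes ALG-3 and ALG-4, antisense reads of alg-1 and alg-5 lay below input. In the ALG-3 IPs alg-1 read 0.428 and 0.330 RPM against 3.08 and 3.14 RPM, and in the ALG-4 IPs 0.698 and 0.186 RPM against 2.96 and 3.10 RPM. The log2 fold changes were -1.58 ± 0.17 and -1.51 ± 0.23 (limma, adjusted p = 3.39e-05 and 0.000732), from 9 and 13 IP reads. Both alg-1 calls were lost with a pseudocount of 5 RPM, where the values were -0.59 and -0.56. Without either ALG-3 input library alg-1 was no longer testable in JMC205. For alg-5 they were -1.07 ± 0.14 and -1.61 ± 0.18 (limma, adjusted p = 0.000159 and 0.000174). The ALG-3 call of alg-5 was lost without ALG-3 input replicate 1 (log2 fold change -0.92), under TMM scaling (-0.63) and with a pseudocount of 5 RPM (-0.67), each under 1 in size.

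**Figure D2:**
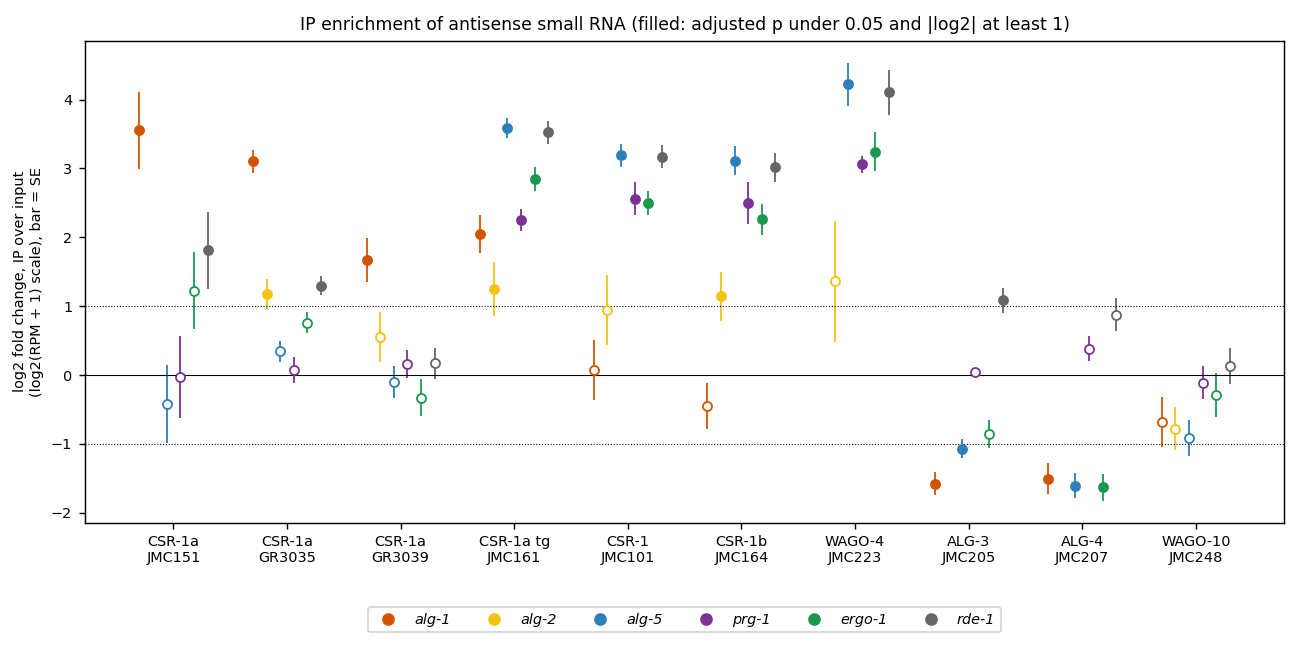
Log2 fold change of IP over input on the log2(RPM + 1) scale, by strain, 1 colour per gene. Bars are SEs from limma, filled points passed both thresholds, and missing points were not testable. In JMC151 alg-1 lies at 3.56 and alg-5 at -0.42, and in JMC164 alg-1 lies at -0.45 and alg-5 at 3.11.

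The counts of called members stand beside the share of all antisense coding features called in the same direction. Of the 6 members, 4 were higher in JMC101 (54.5% of features), 5 in JMC164 (50.7%), 4 of the 5 testable in JMC223 (68.2%) and 6 in JMC161 (56%). None was lower in these strains, beside 19.5%, 19.4%, 5.25% and 13.3% of features. In the CSR-1a IPs 2 of 5 testable members were higher in JMC151 (42.5%), 3 of 6 in GR3035 (33.2%) and 1 of 6 in GR3039 (16.7%), and none was lower in JMC151 (15.4%) or GR3039 (6.82%). In ALG-3, 1 of 5 was higher (28.9%) and 2 were lower (31%). In ALG-4, 0 were higher (33.1%) and 3 of 5 were lower (33.6%). In WAGO-10 0 of 6 were called, beside 10.4% higher and 8.98% lower. There alg-5 had an adjusted p of 0.0253 (limma), but its log2 difference of -0.91 was under 1 in size. It passed 1 in size without WAGO-10 IP replicate 1 (-1.08). At an unadjusted p under 0.05 alg-2 was also lower, by less than 1 on the log2 scale. These shares are large, so a call of higher or lower alone did not set the 6 genes apart from other targets. The median log2 fold change of all antisense coding features was 1.42 in JMC101, 1.03 in JMC151, 1.09 in JMC164 and 3.19 in JMC223, so the JMC223 value of prg-1 (3.06) lay below the median there. TMM scaling lowered the JMC223 log2 fold changes to 2.72 for alg-5, 1.49 for prg-1, 1.76 for ergo-1 and 2.62 for rde-1, all still called, as it lowered those of all features. In JMC161 it lowered them to 2.85, 1.496, 2.13 and 2.80, all still called.

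The isoform difference was tested directly by comparing IP over input between JMC151 (CSR-1a) and JMC164 (CSR-1b). For alg-1 the enrichment was larger in CSR-1a by 4.01 ± 0.54 on the log2 scale (limma, adjusted p = 0.00108), with 10.6% of features called in that direction. For alg-5 it was lower by -3.54 ± 0.51 (limma, adjusted p = 0.00149) and for prg-1 by -2.53 ± 0.65 (limma, adjusted p = 0.0192), with 23.2% of features called lower. The alg-1 and alg-5 differences held in all 13 alternatives, with adjusted p from 0.000388 to 0.016 and from 0.000363 to 0.0221 (limma), whereas that of prg-1 held in 8 of 13. For rde-1 and ergo-1 the differences were -1.21 ± 0.47 and -1.04 ± 0.48 and did not pass (limma, adjusted p = 0.0889 and 0.146). The strains also differed in depth, since the JMC151 libraries held 1302211 to 1562176 estimated reads, and the part of depth in these differences was not tested. In ALG-3 against ALG-4 no member differed, with adjusted p of 0.523 or more (limma), unadjusted p under 0.05 for alg-5 and ergo-1, and 0% of features called higher and 0.0287% lower.

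GR3039, which carries the G91R allele, was compared with GR3035 in the same way; GR3035 carries 2 reporters that GR3039 does not list, so allele and reporters cannot be told apart. Enrichment in the GR3039 IP was lower by -1.43 ± 0.34 for alg-1, -1.13 ± 0.25 for rde-1 and -1.09 ± 0.29 for ergo-1 (log2). None of the 3 passed, at adjusted p = 0.0561, 0.0533 and 0.0675 (limma), with 0.144% of features called higher and 1.59% lower. All 3 passed without GR3039 IP replicate 1 (adjusted p 0.0262 to 0.0429, limma), with a pseudocount of 5 RPM, and with the replicate number as a block (adjusted p = 0.0441, 0.0319 and 0.0479, limma). The unadjusted p was 0.00136, 0.000907 and 0.00353, and under 0.05 for none of alg-2, alg-5 and prg-1. In the inputs no member differed between GR3039 and GR3035, the log2 differences running from -0.27 to 0.19 (limma, adjusted p of 0.454 or more, 0 members at an unadjusted p under 0.05), with 1.88% of features called higher and 8.49% lower.

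Sense reads of the 6 genes were scarce, at medians of 0.429 to 4.60 RPM over 40 libraries. Antisense exceeded sense in all 40 libraries for alg-5, prg-1, ergo-1 and rde-1. For alg-1 it did so in 15 of 20 IPs and 17 of 20 inputs, and for alg-2 in 18 and 16. Over the 10 strains the log2 IP over input values of alg-5, prg-1, ergo-1 and rde-1 moved together, with Pearson r from 0.848 to 0.953 between pairs; the values of a strain come from the same libraries. The antisense features whose values over the 10 strains were most like those of alg-5, among 5246 features tested in all of them, were trcs-2, lin-53 and sao-1 (r = 0.998 for each). Those most like prg-1 were ccf-1, D2005.7 and ZK1010.2 (0.993, 0.992 and 0.991), those most like ergo-1 were usp-50, pqn-20 and C15C6.3 (0.995, 0.992 and 0.991), and those most like rde-1 were gei-14, K07H8.2 and cpf-1 (0.992, 0.991 and 0.991).

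Antisense reads of the genes that work with these Argonautes were read beside those of all antisense coding features. Some genes, such as dcr-1, are in several of these pathway lists. In the CSR-1b IP of JMC164, where 50.7% of features were higher, 13 of 14 piRNA pathway genes were higher and parn-1, the piRNA trimmer, was lower (median log2 fold change 3.01, against 1.09 for all features). Of 10 miRNA pathway genes 9 were higher, among them the Microprocessor pair drsh-1 and pash-1, and ain-1, a GW182-type cofactor of ALG-1, was not called. Of 11 genes of the 26G pathway 10 were higher and eri-6 was lower, and of 12 testable genes of the exogenous RNAi pathway 8 were higher and rde-11 was lower. In the CSR-1a IP of JMC151, where 42.5% of features were higher, 0 of 12 testable piRNA pathway genes were higher and parn-1 was lower (median 0.07, against 1.03 for all features). The count for the miRNA pathway lay near that share, with 4 of 10 higher (dcr-1, ain-1, tsn-1 and vig-1), of which all but ain-1 were also higher in JMC164. Of 9 testable 26G pathway genes eri-5, rrf-3 and dcr-1 were higher and eri-6 lower, and of 8 testable exogenous RNAi genes dcr-1 was higher and rde-11 and sid-1 lower. In the direct test between JMC151 and JMC164, with 23.2% of features less and 10.6% more enriched in CSR-1a, 12 of 14 piRNA pathway genes, 7 of 11 26G pathway genes and 7 of 12 exogenous RNAi genes were less enriched in CSR-1a, and sid-3 was more enriched. Of the 10 miRNA pathway genes drsh-1, dcr-1, ain-2 and xrn-2 were less enriched in CSR-1a and ain-1 was more enriched. Genes of other Argonautes split in the same test: sago-1 and sago-2 were more enriched in CSR-1a, and csr-1, wago-1, ppw-2, wago-4, ppw-1 and hrde-1 less. Of the marker genes, 8 of 10 germ cell markers were less enriched in CSR-1a and 5 of 6 testable intestine markers more enriched there. These 2 lists do not stand for germline and soma as a whole. In the JMC151 IP against input, 8 of 8 testable sperm markers were higher (median log2 fold change 2.71), and 2 of 8 testable oocyte markers. The 1 testable muscle marker, unc-54, and the 1 testable epidermis marker, sqt-3, were lower there, and the 1 testable neuron marker was not called. Of 11 known targets of these pathways, Y47H10A.5, E01G4.5, C44B11.6 and K02E2.6 were more enriched in CSR-1a and none was less enriched. Against input in JMC151, 6 of 9 testable targets were higher and 2 lower, beside 42.5% and 15.4% of features. E01G4.5 was not among those called there. In JMC164 3 of 11 targets were higher and 6 lower than input (median log2 fold change -2.95), beside 50.7% and 19.4%.

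In mRNA, 5 of the 6 genes changed with temperature in wild type, beside 28.3% of all genes called higher and 30.4% lower. From 20 C to 25 C, alg-5, prg-1, ergo-1 and rde-1 rose and alg-1 fell, while alg-2 did not pass the test. In the csr-1a mutant JMC164 alg-5 and rde-1 rose and alg-1 fell, beside 26.8% of all genes higher and 24.4% lower. There prg-1, ergo-1 and alg-2 did not pass. Between mutant and wild type no member differed at either temperature with all 12 libraries. A gene was called in mRNA where the edgeR quasi-likelihood test gave an adjusted p under 0.05 over 14800 genes, and levels are CPM after TMM normalisation. In whole worms fewer cells of a type and less RNA per cell cannot be told apart, and mutant and N2 counts came from separate tables.

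**Figure D3:**
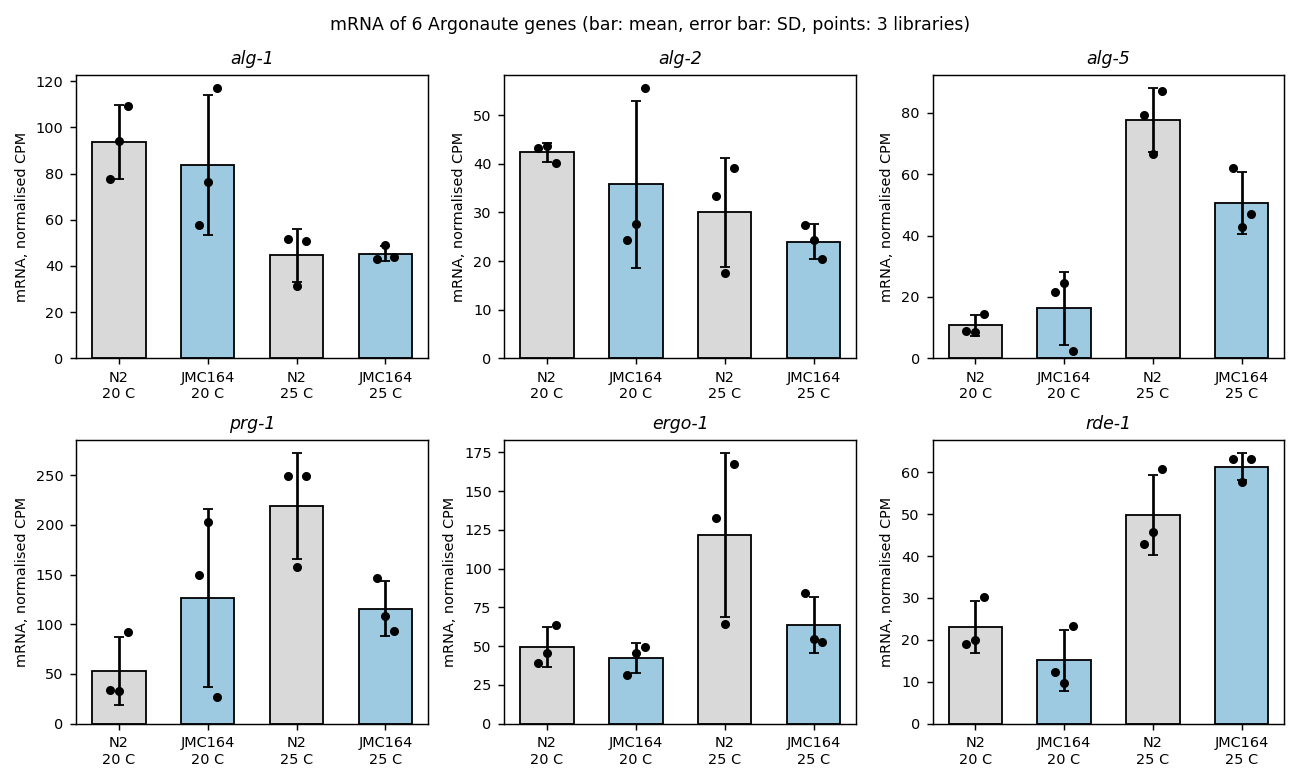
mRNA level of the 6 genes as normalised CPM, 1 panel per gene. Bars are means, error bars SDs and points the 3 libraries of each group. The N2 points of alg-5 lie between 8.58 and 14.6 CPM at 20 C and between 66.6 and 87.1 CPM at 25 C, and 1 of the JMC164 points at 20 C lies at 2.55 CPM.

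In N2 the largest of the 6 changes with temperature was that of alg-5. It read 9.02, 8.58 and 14.6 CPM at 20 C and 79.4, 66.6 and 87.1 CPM at 25 C, without overlap, a 7.21-fold rise (log2 2.85 ± 0.54; edgeR, adjusted p = 0.000775). In JMC164 it read 21.7, 24.6 and 2.55 CPM at 20 C and 62.0, 42.7 and 46.97 CPM at 25 C, a 3.05-fold rise (log2 1.61 ± 0.52; edgeR, adjusted p = 0.0206). The low value at 20 C was that of replicate 3. The JMC164 call was lost without 25 C replicate 1 (edgeR, adjusted p = 0.0663) and when only the 2 JMC164 groups were fitted (0.106). The span of alg-5 overlaps cfi-1, whose own level was 1.33 to 4.92 CPM by group.

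The somatic gene alg-1 moved in the opposite direction. In N2 it read 77.5, 94.0 and 109 CPM at 20 C and 51.8, 31.3 and 50.7 CPM at 25 C (log2 fold change -1.07 ± 0.26; edgeR, adjusted p = 0.00372). In JMC164 it read 57.8, 76.3 and 117 CPM at 20 C and 42.9, 49.0 and 43.8 CPM at 25 C (-0.89 ± 0.26; edgeR, adjusted p = 0.0125). The groups did not overlap in either strain, and both calls held under every alternative run. For alg-2 the N2 values of 43.3, 43.7 and 40.2 CPM at 20 C lay above the 33.5, 17.5 and 39.1 CPM at 25 C, but the log2 difference of -0.50 ± 0.32 did not pass (edgeR, adjusted p = 0.201).

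In N2 prg-1 read 34.3, 33.0 and 92.4 CPM at 20 C and 250 CPM, 157 CPM and 249 CPM at 25 C, a 4.10-fold rise (log2 2.04 ± 0.59; edgeR, adjusted p = 0.0106). In JMC164 it read 150 CPM, 202 CPM and 27.1 CPM at 20 C and 147, 108 and 93.0 CPM at 25 C, overlapping groups with a log2 difference of -0.13 ± 0.57 (edgeR, adjusted p = 0.866). Of the 6 JMC164 libraries 20 C replicate 3 was the lowest. The difference between the temperature effects of the 2 strains was -2.17 ± 0.81 on the log2 scale and did not pass (edgeR, adjusted p = 0.0704).

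Both primary siRNA Argonaute genes rose in N2. For ergo-1 the values were 39.1, 45.7 and 63.6 CPM at 20 C and 133, 64.03 and 168 CPM at 25 C, a 2.46-fold rise (log2 1.30 ± 0.33; edgeR, adjusted p = 0.00541). The lowest 25 C library stood just above the highest 20 C library. In JMC164 ergo-1 read 31.3, 45.6 and 49.8 CPM at 20 C and 84.4, 54.5 and 52.4 CPM at 25 C, a log2 difference of 0.59 ± 0.33 that did not pass (edgeR, adjusted p = 0.154). For rde-1 the N2 values were 19.1, 20.0 and 30.2 CPM at 20 C and 42.9, 45.8 and 60.8 CPM at 25 C, a 2.15-fold rise (log2 1.11 ± 0.29; edgeR, adjusted p = 0.00571). In JMC164 they were 12.3, 9.63 and 23.3 CPM at 20 C and 63.1, 57.5 and 63.1 CPM at 25 C, a 4.12-fold rise (log2 2.04 ± 0.30; edgeR, adjusted p = 0.000133). The difference between the strains' temperature effects was 0.93 ± 0.41 for rde-1 (edgeR, adjusted p = 0.108).

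Temperature changed much of the transcriptome, with 28.3% of genes higher and 30.4% lower at 25 C in N2, and 26.8% higher and 24.4% lower in JMC164. The 20 C and 25 C values of N2 did not overlap for 6 of 6 members, beside 69.9% of all genes, and those of JMC164 for 4 of 6, beside 54.7%. In N2 the germ cell and oocyte markers moved the same way as the 4 rising members. The summed level of 10 germ cell markers was 366 to 1259 CPM at 20 C and 2236 to 4044 CPM at 25 C in N2, with 9 of 10 called higher. Of 11 sperm markers 2 were called higher in N2, with a median log2 fold change of 0.14. Their summed level was 589 to 685 CPM at 20 C and 631 to 688 CPM at 25 C. All 10 oocyte markers were higher in N2 (summed level 205 to 566 CPM against 3305 to 5809 CPM), led by the RNA-binding protein genes puf-5 and oma-2 and the eggshell gene cpg-1. In JMC164 2 of 10 germ cell markers and 9 of 10 oocyte markers were called higher, while 5 of 11 sperm markers, led by gsp-3 and msp-50, were lower. Somatic markers also moved. The cuticle genes dpy-7, rol-6, sqt-1, sqt-3 and bli-1 fell in both strains and the adult collagen gene col-19 rose. Of 7 intestine markers the yolk protein genes vit-2 and vit-6 rose in both strains, while ges-1, elt-2 and act-5 fell in N2 and act-5 in JMC164. Of 7 muscle markers 4 fell in N2 and 1 in JMC164, and of 6 neuron markers 3 and 2 fell, the direction of alg-1. The part of these cell types or of stage within L4 in the members' changes was not tested.

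**Figure D4:**
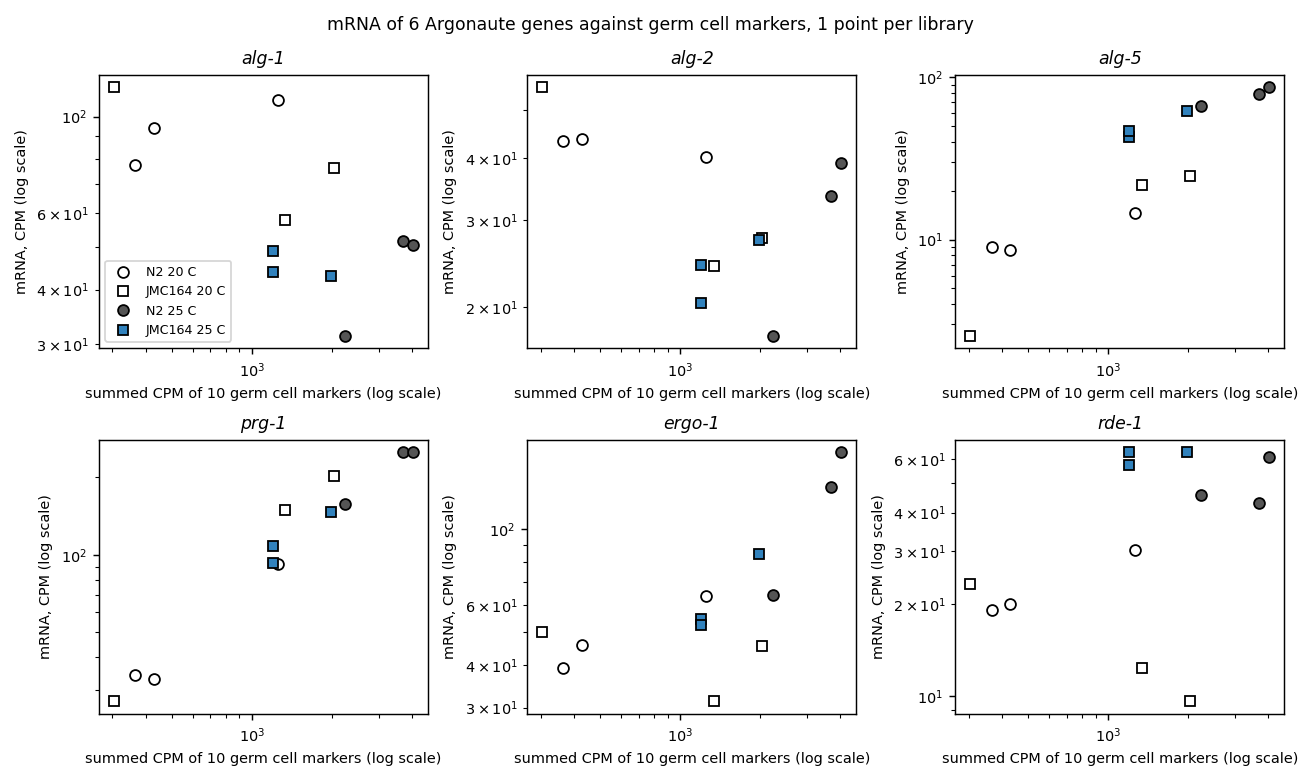
mRNA level of each gene against the summed CPM of 10 germ cell markers, both on log scales, 1 point per library. Libraries of N2 and JMC164 at 20 C are open and those at 25 C filled. JMC164 20 C replicate 3 lies at 304 CPM of markers, the lowest of the 12, where prg-1 and alg-5 are also lowest (27.1 and 2.55 CPM) and alg-1 and alg-2 are highest (117 and 55.6 CPM).

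At 20 C no member differed between JMC164 and N2 with all libraries (edgeR, adjusted p of 0.225 or more, 0 members at an unadjusted p under 0.05), beside 1.95% of genes higher and 5.16% lower. DESeq2 also called none. One mutant library stood apart: replicate 3 correlated with replicate 2 at r = 0.908, against 0.971 or more within the other 3 groups, and its summed germ cell markers were 304 CPM against 1340 CPM and 2033 CPM in the other 2. Without it, 3 members differed: alg-5 was higher by 1.16 and prg-1 by 1.78 on the log2 scale, and rde-1 was lower at -1.05 (edgeR, adjusted p = 0.00163, 0.00231 and 0.00257), beside 20.2% of genes higher and 18.7% lower. In the same fit 5 of 10 germ cell markers, 6 of 10 oocyte markers, 7 of 11 sperm markers and 2 of 6 epidermis markers were higher in the mutant. Lower there were 3 of 7 muscle, 2 of 7 intestine and 2 of 6 neuron markers. Without that library the temperature effect also differed between the strains for alg-5 (-1.80), prg-1 (-2.72) and rde-1 (1.33), with adjusted p of 0.000273, 0.000577 and 0.00159 (edgeR), beside 26.4% of genes lower and 27.3% higher. The calls of temperature in JMC164 were 2 members higher and 1 lower with and without it, beside 31.8% of genes higher and 30.4% lower without it.

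At 25 C the mutant values of alg-5 and prg-1 lay below all N2 values, 2 of 6 members without overlap beside 58.7% of genes, but neither difference passed (log2 -0.62 ± 0.50 and -0.92 ± 0.57; edgeR, adjusted p = 0.348 and 0.232). For ergo-1 the log2 difference was -0.93 ± 0.33 and the groups overlapped, with an adjusted p of 0.0524 (edgeR). Of all genes 17.4% were higher and 11.2% lower. At an unadjusted p under 0.05 ergo-1 alone passed, and DESeq2 called it lower at adjusted p = 0.0189. With the 2 groups at 25 C fitted alone, alg-5, prg-1 and ergo-1 were lower (edgeR, adjusted p = 0.00729, 0.00299 and 0.0162). For the difference of temperature effects 0 members passed with all libraries (prg-1 and rde-1 at an unadjusted p under 0.05), beside 13.5% of genes higher and 9.26% lower, while DESeq2 called prg-1 (adjusted p = 0.0231).

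The partner genes of each pathway were called with temperature in larger numbers in N2 than in JMC164. With all 12 libraries the difference between the strains was called for few of them. All 14 piRNA pathway genes rose in N2, beside 28.3% of all genes, among them parn-1 (4.08-fold) and pid-2 (4.10-fold), which acts in piRNA-directed silencing, and 5 of 14 rose in JMC164, beside 26.8% of all genes, among them tost-1 and erh-2 of the piRNA-processing PETISCO complex. The difference between strains was called for pid-2, pid-3 and parn-1. Without JMC164 20 C replicate 3 it was called for 12 of 14, all lower, beside 26.4% of genes, and 14 of 14 were higher in the mutant than in N2 at 20 C, beside 20.2%. Without that library the difference between strains was also called in the other lists, beside 27.3% of genes higher and 26.4% lower. Of 14 exogenous RNAi genes 5 were higher and 6 lower. Of 11 26G pathway genes 1 was higher and 4 lower, and of 10 miRNA pathway genes 1 was higher and 4 lower. Of 11 genes of the 26G pathway 10 rose in N2 and 7 in JMC164, among them rrf-3, the RNA-dependent RNA polymerase that makes 26G precursors (3.22-fold and 3.42-fold). Of 14 genes of the exogenous RNAi pathway 9 rose and 2 fell in N2, among the former the dsRNA channel gene sid-1 (3.52-fold), and 7 rose in JMC164. Of 10 miRNA pathway genes 6 rose and 2 fell in N2 and 3 rose and 3 fell in JMC164; drsh-1 and pash-1 rose in both strains. Median log2 fold changes in N2 were 1.38, 1.51, 1.01 and 0.58 for these 4 lists, beside -0.03 for all genes. The lists share genes, so their counts are not separate. The gene dcr-1 is in the miRNA, 26G and exogenous RNAi lists. The 26G list also shares rde-4 with the exogenous RNAi list and henn-1 with the piRNA list.

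Genes known as targets of these Argonautes were also read in mRNA. Y47H10A.5, a target of miR-243 bound to RDE-1, was higher in JMC164 at both temperatures. At 20 C it read 25.6, 22.1 and 15.3 CPM in JMC164 and 2.79, 3.87 and 5.85 CPM in N2, a 4.99-fold difference (log2 2.32 ± 0.25; edgeR, adjusted p = 0.000336), and at 25 C the difference was 4.58-fold (edgeR, adjusted p = 6.99e-05). E01G4.5, a target of ERGO-1 26G-RNAs, was lower in JMC164 at 20 C, at 2.03, 2.24 and 4.82 CPM against 27.5, 26.9 and 18.997 CPM (log2 -3.05 ± 0.30; edgeR, adjusted p = 0.000243). At 25 C E01G4.5 read 10.3 to 13.2 CPM in JMC164 and 10.6 to 12.4 CPM in N2, and the difference between the temperature effects was 3.05 ± 0.40 (log2; edgeR, adjusted p = 0.000895). Of the miRNA targets listed, lin-14 and hbl-1, regulated by lin-4 and let-7 family miRNAs, were higher in JMC164 at 25 C by 1.04 ± 0.26 and 1.21 ± 0.39 (log2; edgeR, adjusted p = 0.0119 and 0.0358). The let-7 target lin-41 averaged 60.5 ± 29.1 CPM in JMC164 and 133 ± 73.8 CPM in N2 at 25 C (SD, n = 3) and was not called, nor were lin-28 and daf-12. Of the 11 listed targets 1 was higher and 1 lower at 20 C, beside 1.95% and 5.16% of all genes, and 5 were higher at 25 C, beside 17.4%.

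Over the 12 mRNA libraries the genes whose log2 CPM was most like that of alg-1, among 12344 genes, were pyc-1, apl-1 and mig-15 (Pearson r = 0.986, 0.983 and 0.979). Those most like alg-2 were dyn-1, snx-14 and alx-1 (0.966, 0.965 and 0.964). For alg-5 they were egg-1, puf-11 and plk-3 (0.997 for each), and for prg-1 plk-2, herd-1 and Y14H12B.2 (0.989, 0.988 and 0.983). For ergo-1 they were pqn-20, hrpu-1 and pis-1 (0.987, 0.986 and 0.985), and for rde-1 C09E7.7, fnci-1 and rev-1 (0.992, 0.991 and 0.990). The 12 libraries share 4 groups, so these values describe the pattern over groups as well as over libraries.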

How the data were processed

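Small RNA values are RPM, which the authors scaled to 1000000 reads per library and deposited with 0.01 added, as read from the values. Of the values of at most 20 estimated reads, 74.5% to 87.2% were whole (tolerance 0.02), so no count test was used. The deposited mRNA tables give whole-number counts per gene without normalisation. Per the submitters' processing notes, cutadapt, STAR, FastQC and DESeq2 were used; the sources used here give neither their roles nor a genome build. Gene names and overlaps came from the files and RefSeq (WBcel235). Reads without a feature, 2.6% to 10.8% of a small RNA library, stayed in the total and out of the tests.

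Small RNA was tested with limma 3.58.1 on log2(RPM + 1), for features with at least 10 estimated reads in at least 2 libraries, in each strain's own 4 libraries. mRNA was tested with edgeR 4.0.16 (TMM, filterByExpr, quasi-likelihood, all 4 groups in 1 fit) in R 4.3.3. P-values were adjusted over all features tested (Benjamini-Hochberg). The fits were tested on simulated data. Named genes were the 6 members in every comparison, up to 4 called genes of each pathway list with the largest change, and for each member the 3 genes most like it. Other list members are named where a count turns on them, chosen after their values were seen. The members and lists were chosen with earlier results of these data known. Of 55 labelled samples, 52 have a column; 3 inputs of GR3043 are not analysed here. Alternatives were another pseudocount, filter, scaling and tool, a replicate block, leaving out each library, and, chosen after seeing the data, list counts without 1 mRNA library.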

Additional observations from a re-analysis of the deposited data

Results flagged for a closer look

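The IP enrichment of antisense small RNA differed between JMC151, labelled CSR-1a, and JMC164, labelled CSR-1b, for 3 of the 6 genes by a test of the difference itself. For alg-1 the log2 difference was 4.01, for alg-5 it was -3.54 and for prg-1 it was -2.53 (limma, adjusted p = 0.00108, 0.00149 and 0.0192). Of all antisense coding features 10.6% were called higher and 23.2% lower in the same test. The prg-1 call held in 8 of 13 alternatives. With 2 or 3 libraries in each group, no library could be tested as standing apart within its group.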

How the results depend on the processing

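Depth limited alg-1 and alg-2 most, since the JMC151 and WAGO-4 inputs held 0 to 4 of their reads, and with 2 libraries per group a single library could decide a call. Over the members' alternatives, 317 small RNA results and 86 mRNA results that were called kept their call and 28 and 2 lost it. Alternatives in which a member was not testable are not in these counts. TMM scaling moved the all-feature median (log2) by -1.35 in JMC223, -0.58 in JMC151 and -0.43 in JMC161, and by 0.33 in JMC205. Where a count or direction changed, the cause was not tested unless it is given.

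Counts of called members changed as follows. In JMC151 the count went from 2 to 0 without the filter on low values and ranged from 0 to 3 on leaving out a library; without either IP library alg-1 had too few reads to be tested. In JMC205 a pseudocount of 5 RPM gave 0 instead of 3, and leaving out a library gave 1 to 4. There alg-1 had too few reads to be tested without either input library. In JMC207 a pseudocount of 5 RPM gave 1 instead of 3. In JMC248 leaving out a library gave 0 to 1 instead of 0. Between JMC151 and JMC164 the count went from 3 to 5 with a pseudocount of 5 RPM and under TMM. Between GR3039 and GR3035 it went from 0 to 3 with a pseudocount of 5 RPM and ranged from 0 to 3 on leaving out a library. In mRNA, mutant against wild type at 25 C went from 0 to 1 under DESeq2, under its size factors in edgeR and without a filter, and to 3 with the 2 groups fitted alone, with a range of 0 to 1 on leaving out a library. At 20 C leaving out a library gave 0 to 3. For the difference of temperature effects DESeq2 gave 1 and leaving out a library gave 0 to 3.

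Inputs were taken from the lysates used for IP, but the labels do not say that a replicate number marks a shared lysate. The deviations of same-numbered IP and input correlated at r = -0.0153 to 0.406 (over 0.1 in 6 of 10 strains) and those of mRNA groups at -0.405 to 0.323, so pairing is not shown throughout and the main values carry no block. With a replicate block, members called were 3 in JMC151 (ergo-1 added), 3 between GR3039 and GR3035 and 1 (rde-1) for the difference of temperature effects in mRNA, where alg-2 turned to 0.052; no other count changed.

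Only differences that were not called changed sign. Under TMM, alg-1 in JMC101 went to -0.21 and prg-1 to 0.19 in JMC248 and -0.21 in GR3035. With totals without structural RNAs prg-1 in JMC205 went to -0.042. Between the GR3039 and GR3035 inputs prg-1 went to -0.072 without a filter and ergo-1 to 0.037 on scaling to the total. In mRNA at 25 C alg-1 went to -0.043 under DESeq2 and its size factors and to -0.025 without a filter. Leaving out a library gave log2 ranges that crossed 0 for alg-1 in JMC101 (-0.39 to 0.54), for prg-1 in JMC151 (-0.48 to 0.43) and GR3035 (-0.12 to 0.26), and in JMC248 for prg-1 (-0.40 to 0.19), ergo-1 (-0.61 to 0.027) and rde-1 (-0.026 to 0.28). In GR3039 alg-5 ranged from -0.26 to 0.052 and rde-1 from -0.0024 to 0.34. Between JMC205 and JMC207 alg-1 ranged from -0.33 to 0.19 and rde-1 from -0.075 to 0.49, and between GR3039 and GR3035 prg-1 ranged from -0.11 to 0.27. Between their inputs alg-2 ranged from -0.11 to 0.50, prg-1 from -0.062 to 0.14 and ergo-1 from -0.21 to 0.11. In mRNA at 20 C alg-1 ranged from -0.43 to 0.046 and ergo-1 from -0.34 to 0.0039, and at 25 C alg-1 from -0.19 to 0.13. With temperature in JMC164 prg-1 ranged from -0.68 to 0.39. For the difference of temperature effects alg-1 ranged from -0.031 to 0.43 and alg-2 from -0.35 to 0.31.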
